A study of Mus musculus with 36 samples.

Results

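MHC class I antigen presentation was followed here through 9 mouse genes: the heavy chains H2-K1, H2-D1 and H2-T23, the light chain B2m, the peptide transporter subunits Tap1 and Tap2, the loading factors Tapbp and Tapbpl, and the transactivator Nlrc5. They were chosen by gene symbol for their role in the pathway, with earlier results of these data known. Shares of all genes are thus given beside member counts as a description, with no test. The members are 9 of 21754 genes with a symbol in the deposited counts. All 9 had enough reads to be tested, among 15204 genes tested in all. RNA sequencing measured them in motor neurons grown from mouse embryonic stem (ES) cells and exposed to medium that astrocytes had conditioned.

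The ES cells came from Hlxb9-GFP1Tmj transgenic mice, whose transgene places eGFP, alone or together with the surface antigen CD2, under the mouse promoter of the motor neuron transcription factor HB9 (Mnx1). Motor neurons of every group carry this transgene and were enriched on magnetic beads through CD2, so cells that do not use this promoter were depleted but need not be absent. The 3 media were non-transgenic (NTg), mSOD1, from astrocytes overexpressing G93A mutant SOD1, and wtSOD1, from astrocytes overexpressing the wild-type enzyme. All media received glucose, penicillin/streptomycin and the trophic factors GDNF, BDNF and CNTF before use. Astrocytes were grown from cord or cortex of newborn pups and freed of microglia by shaking, and which of these tissues served a given library was not analysed here. RNA was taken after 1 or 3 days, which gave 6 groups of 6 libraries, numbered by experiment 1 to 6. A time zero control named in the series description was not analysed here.

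MHC class I molecules display short peptides from inside the cell to cytotoxic T cells and natural killer cells. A heavy chain folds with the light chain beta-2-microglobulin (B2m), peptides cut by the proteasome are pumped into the endoplasmic reticulum by the TAP transporter, and tapasin (Tapbp) holds the empty complex at TAP until a peptide fits. Resting neurons are known for low class I expression, which interferons raise through the IRF factors and Nlrc5.

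H2-K1, H2-D1, H2-T23, Tap1, Tap2 and Tapbp all lie on chromosome 17, in the mouse MHC, whereas B2m lies on chromosome 2, Tapbpl on chromosome 6 and Nlrc5 on chromosome 8. RefSeq promoter entries (build GRCm38.p6) were matched by symbol for 6 of the 9 members, and Tap2, Tapbpl and Nlrc5 had no entry. The 180 bases before the annotated start site are shown for the 3 heavy chains, B2m and Tap1, the members on which the results below turn. They were searched on both strands for a short form of the interferon-stimulated response element (GAAANNGAA), the gamma-activated site (TTCNNNGAA), a short kB form (GGGNNTTCC), the CRE core (TGACG) and the Y box (CCAAT), and capitals mark each match.

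H2-K1: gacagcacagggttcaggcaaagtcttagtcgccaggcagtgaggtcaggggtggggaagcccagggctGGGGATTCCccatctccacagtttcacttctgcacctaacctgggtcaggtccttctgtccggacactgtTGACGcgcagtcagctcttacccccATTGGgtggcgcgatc
H2-D1: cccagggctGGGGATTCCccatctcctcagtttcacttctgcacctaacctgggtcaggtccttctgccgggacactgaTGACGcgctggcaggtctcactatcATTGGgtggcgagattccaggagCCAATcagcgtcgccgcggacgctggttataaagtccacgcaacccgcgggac
H2-T23: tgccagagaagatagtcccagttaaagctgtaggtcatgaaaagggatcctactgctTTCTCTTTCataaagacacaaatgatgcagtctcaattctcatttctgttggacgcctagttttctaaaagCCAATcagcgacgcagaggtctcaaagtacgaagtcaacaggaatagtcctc
B2m: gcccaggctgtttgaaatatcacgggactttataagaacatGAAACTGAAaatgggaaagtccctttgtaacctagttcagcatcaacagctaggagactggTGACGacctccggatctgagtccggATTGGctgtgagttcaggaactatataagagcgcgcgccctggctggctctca
Tap1: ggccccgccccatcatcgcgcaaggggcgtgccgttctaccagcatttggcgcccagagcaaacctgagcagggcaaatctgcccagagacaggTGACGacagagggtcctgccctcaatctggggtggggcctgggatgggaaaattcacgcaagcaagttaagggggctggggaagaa

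These stretches are chr17:34000348-34000527 (minus strand, H2-K1), chr17:35262914-35263093 (plus, H2-D1), chr17:36032702-36032881 (minus, H2-T23), chr2:122147507-122147686 (plus, B2m) and chr17:34187376-34187555 (plus, Tap1). H2-K1 and H2-D1 carried the same 9 letters of the kB form, with first base at -111 and -171 from the start, followed by a CRE core at -41 and -101 and a Y box downstream of it. B2m and H2-T23 held the interferon-response short form, at -139 and -123, and no match to the short kB form. Tap1 held a CRE core at -86 and, of the motifs searched, no other in the stretch shown. In the full windows, which run from 250 bases before to 50 bases after the start, the kB form was found in 2 of the 6 members with an entry, the interferon-response form in 2, the gamma-activated site in 0, the CRE core in 4 and the Y box in 6. Among 32851 RefSeq promoter windows of the same length, 5.82% held the kB form, 8.56% the interferon-response form, 8.3% the gamma-activated site, 20.8% the CRE core and 37.4% the Y box. No match overlapped a match to another motif. A match describes letters and not a bound site. Other forms of these elements were not searched, so a missing match does not mean that an element is absent.

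Libraries held 4.39 to 88.9 M reads assigned to genes, and levels are given as counts per M reads (CPM) on scaled library sizes. The smallest library, NTg day 1 library 6, stood apart from its group and is named throughout. Its summed microglia and macrophage markers reached 73 CPM against 16 to 18.2 CPM in the other NTg day 1 libraries, and 9 of 12 markers lay above all 35 other libraries. C1qa, a complement gene of microglia, was at 6.6 CPM (28 reads) there and had no read in any other library, while Aif1 was at 0.471 CPM. Its MHC class II markers summed to 74.7 CPM against 13.9 to 17.6 CPM, with Cd74 at 27.8 CPM and H2-Aa at 15.5 CPM, and its oligodendrocyte markers to 230 CPM against 81.7 to 84.8 CPM. In that library 8 of the 9 members were the highest of their group, Tap1 being the exception. The part of these other transcripts in the members' levels was not tested, and member calls that changed without the library are given with and without it. The largest library, wtSOD1 day 1 library 4, was the lowest of its group for 3 members, H2-K1, B2m and Tapbp. It held 88.9 M reads but had reads for 16824 genes, beside 16975 to 17518 in the other libraries of its group. The reason was not tested.

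All 8 motor neuron markers had reads, and their sum ran from 1440 to 1851 CPM on day 1 and from 534 to 1082 CPM on day 3. Summed neuron markers ran from 2722 to 3327 CPM on day 1 and from 1404 to 2692 CPM on day 3. Astrocyte markers stood at 158 to 235 CPM on day 1 and 444 to 653 CPM on day 3. The day 1 maximum was 217 CPM outside NTg day 1 library 6. In the fit without that library, 6 of 8 astrocyte markers were called higher and 1 lower on day 3 in each medium. Beside them, 28.6% to 31.4% of all genes were called higher. Outside it Slc1a3 reached 293 CPM and Aldh1l1 176 CPM, against at most 3.94 CPM for Aqp4 and 3.47 CPM for Gfap. Mesenchyme markers stood at 425 to 777 CPM and 1090 to 1702 CPM. Acta2 weighed most in the mesenchyme sum, at 356 to 1450 CPM outside NTg day 1 library 6, against at most 112 CPM for Col1a1. Outside NTg day 1 library 6, microglia and macrophage markers stayed at 14 to 25 CPM on day 1 and 15.7 to 21.2 CPM on day 3. These shifts ran beside every difference between days reported below, and their part in it was not tested. In such bulk samples fewer cells of a type and less RNA per cell cannot be told apart.

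**Figure D1:**
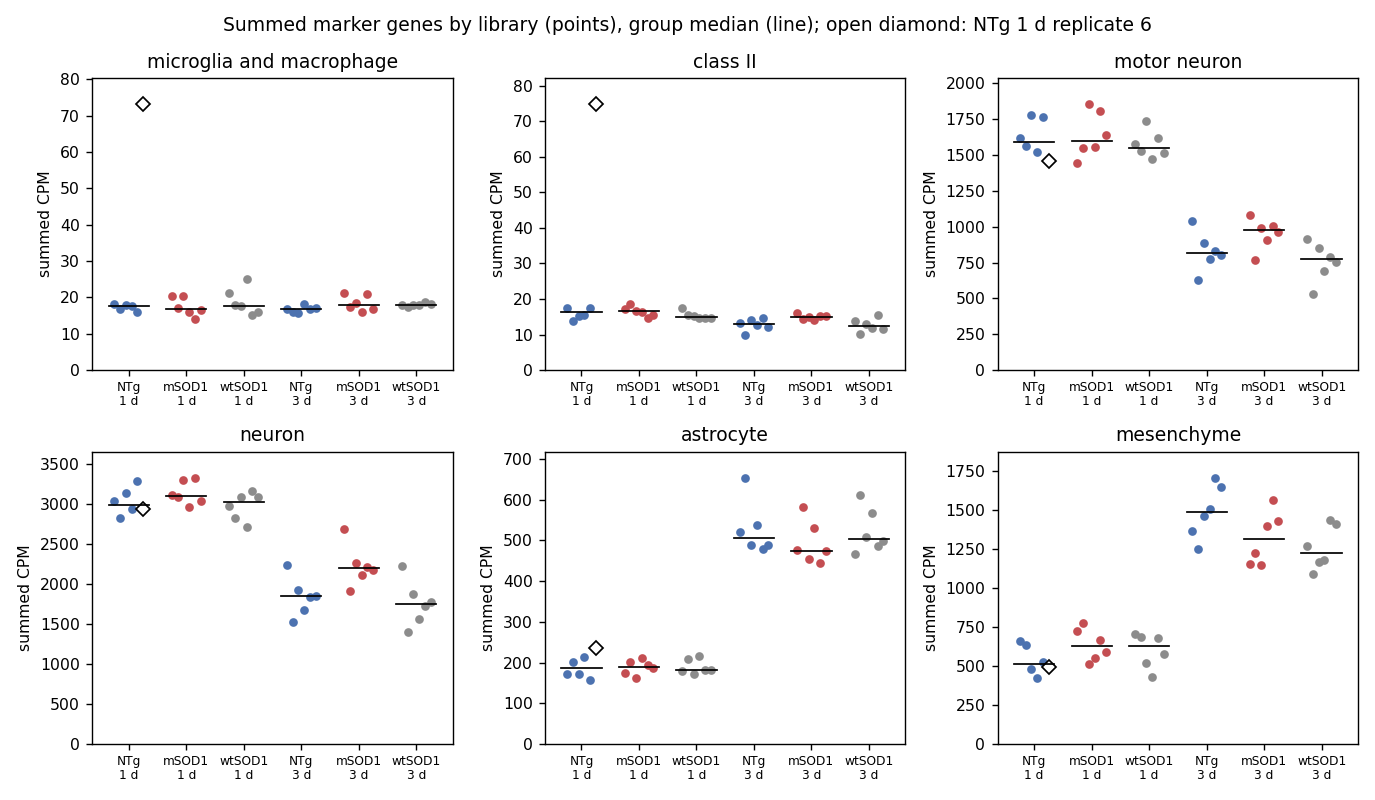
Summed CPM of marker lists (y axes, linear from 0) in each library, by medium and day; points are libraries, lines are group medians, and the open diamond is NTg day 1 library 6. That library alone stands high for microglia and macrophage markers (73 CPM) and for class II markers (74.7 CPM), while neuron sums are lower and astrocyte and mesenchyme sums higher on day 3.

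Levels per length were compared first, as CPM per kilobase of exon (GENCODE M21). B2m was the most abundant member, at 28.1 ± 14.9 CPM per kb on day 1 and 62.2 ± 4.5 on day 3 in NTg medium (mean ± SD of 6 libraries). The heavy chains followed on day 3 in that medium, with H2-T23 at 11.9 ± 0.591, H2-K1 at 9.55 ± 0.582 and H2-D1 at 6.54 ± 0.402 CPM per kb, and tapasin (Tapbp) stood at 9.12 ± 0.562. H2-K1 (8.65 to 10.3 CPM per kb) and Tapbp (8.23 to 9.95) overlapped there and were not separated by their spread, whereas H2-T23 lay above both and H2-D1 below both in every library. Tap1 stood at 4.09 ± 0.261, Tapbpl at 2.08 ± 0.375 and Tap2 at 1.96 ± 0.277 CPM per kb, the last 2 overlapping. Nlrc5 was the scarcest, at 0.353 ± 0.0485 CPM per kb on day 3. Day 1 counts of Nlrc5 came to 4 to 59 reads per library, which limits what could be detected for it.

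Motor neurons exposed to mSOD1 medium for 1 day were compared with those in NTg and wtSOD1 medium. Against NTg medium, 1 of the 9 members passed the test at an adjusted p of 0.05, against 0.408% of all genes tested that were higher. This was Tap1 (gene 21354), which encodes a subunit of the TAP transporter. The median log2 difference of the members was 0.30, or 0.47 without NTg day 1 library 6, beside -0.00 over all genes tested in both fits, and with all libraries all 9 estimates lay above 0. At an unadjusted p under 0.05 the count was 4, namely B2m, Tap1, Tap2 and Tapbp, beside 6.95% of all genes in either direction. The p-values measure the spread between these libraries, which the labels number by experiment without saying how the cultures of an experiment were made. Except where a block is named, the fit did not pair libraries by experiment.

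Tap1 read 9.96 CPM at the lowest, 11 at the median and 14.4 at the highest in NTg medium on day 1. In mSOD1 medium it read 13.9, 16 and 17.2 CPM, and in wtSOD1 medium 11, 13.2 and 14.7 CPM. One NTg library (experiment 3, at 14.4 CPM) reached into the mSOD1 range, and mSOD1 exceeded NTg in 6 of 6 same-numbered experiments. Tap1 was 1.37-fold higher in mSOD1 than in NTg medium (log2 difference 0.46 ± 0.08 SE, adjusted p = 0.000668). The call held without each of the 36 libraries in turn, with log2 differences of 0.42 to 0.54, and was lost at adjusted p = 0.062 in a fit of the 2 groups alone.

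Against wtSOD1 medium, Tap1 was again the 1 member called, beside 0.539% of all genes called higher. It was 1.23-fold higher in mSOD1 than in wtSOD1 medium on day 1 (log2 difference 0.30 ± 0.08, adjusted p = 0.0403, higher in 6 of 6 experiments). This call lay close to the threshold and was lost in 13 of the 36 fits that left out 1 library, with adjusted p of 0.0505 to 0.185. Those libraries were experiments 1 to 5 of mSOD1 day 1, experiments 1, 3, 4, 5 and 6 of wtSOD1 day 1, experiment 4 of NTg day 3, experiment 4 of mSOD1 day 3 and experiment 3 of wtSOD1 day 3. Leaving out experiment 1, 2, 4, 5 or 6 as a whole also ended the call against wtSOD1 medium, with adjusted p of 0.0533 to 0.423. In wtSOD1 against NTg medium Tap1 differed by 0.15 ± 0.08 (adjusted p = 0.907). Psmb9 overlaps the start of Tap1 on the other strand over 3.87% of its exon bases, and library strandedness was not given in the sources used here. Psmb9 itself read at most 1.05 CPM in any day 1 library.

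B2m (gene 12010), the light chain common to all class I molecules, read 17.2, 18.8 and 50.2 CPM (lowest, median, highest) in NTg medium on day 1. In mSOD1 medium it read 24.1, 29.2 and 34.3 CPM and in wtSOD1 medium 14.6, 22.3 and 29 CPM. The 50.2 CPM belonged to library 6, and the other NTg libraries, up to 21.8 CPM, all lay below the mSOD1 range. With all libraries B2m differed between mSOD1 and NTg medium by 0.39 ± 0.16 (adjusted p = 0.606). Without NTg day 1 library 6 the difference was 0.61 ± 0.11 (adjusted p = 0.000678). Against wtSOD1 medium it was 0.43 ± 0.16 (adjusted p = 0.255) with all libraries. Without that NTg library, which enters this contrast through the shared estimate of spread, it was 0.43 ± 0.10 (adjusted p = 0.0203). Leaving out wtSOD1 day 1 library 4 as well gave 0.31 ± 0.08 (adjusted p = 0.0922), which did not pass. That wtSOD1 library had the lowest B2m level of its group, 14.6 CPM.

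H2-D1 (gene 14964), a classical heavy chain, read 8.85, 12.5 and 31.6 CPM in NTg medium on day 1. In mSOD1 medium it read 14.9, 16.1 and 22.3 CPM and in wtSOD1 medium 10.6, 12.1 and 14.2 CPM. The mSOD1 and wtSOD1 ranges did not overlap, and neither did the mSOD1 and NTg ranges once library 6, at 31.6 CPM, was set aside, since the next NTg library read 14.1 CPM. The difference from NTg medium was 0.29 ± 0.16 (adjusted p = 0.782) with all libraries and 0.51 ± 0.11 (adjusted p = 0.00828) without library 6. From wtSOD1 medium it was 0.48 ± 0.15 (adjusted p = 0.148) and, without that NTg library, 0.48 ± 0.10 (adjusted p = 0.00605). Leaving out NTg day 1 library 6 thus gave 3 called members in each of these comparisons, H2-D1, B2m and Tap1. Beside them, 0.511% of all genes were called higher against NTg and 0.642% against wtSOD1 medium. With wtSOD1 day 1 library 4 left out as well, all 3 stayed called against NTg medium, among 87 genes called in all. Against wtSOD1 medium only H2-D1 then stayed called (0.48 ± 0.11, adjusted p = 0.0215), among 94 genes. Without experiment 6 as a whole, H2-D1 passed against wtSOD1 medium (adjusted p = 0.0275) and Tap1 did not (adjusted p = 0.0709).

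H2-K1 (gene 14972), the other classical heavy chain of the set, read 10.4, 14 and 26.9 CPM in NTg, 12.5, 15.8 and 21.8 CPM in mSOD1 and 9.56, 13.2 and 14.9 CPM in wtSOD1 medium on day 1. Its ranges overlapped. It differed from NTg medium by 0.21 ± 0.15 (adjusted p = 0.86), or 0.35 ± 0.13 (adjusted p = 0.419) without library 6, and from wtSOD1 medium by 0.45 ± 0.15 (adjusted p = 0.156). H2-T23 (gene 15040), the nonclassical heavy chain Qa-1 that presents to natural killer cell receptors, differed by 0.08 ± 0.08 from NTg medium (95% interval -0.08 to 0.25, adjusted p = 0.908) and by 0.14 ± 0.08 from wtSOD1 medium (adjusted p = 0.536).

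Class I heavy chains share stretches of sequence. Of transcript windows of 50 bases, 9.63% of H2-K1, 12.8% of H2-D1 and 13.6% of H2-T23 were found in another annotated gene, against 0% for B2m and Nlrc5. The level of any 1 heavy chain is uncertain, since a rule for such reads was not given in the sources used here. Reads of 23 class I H2 rows were therefore also summed. The sum read 102 to 174 CPM in NTg, 133 to 158 CPM in mSOD1 and 104 to 128 CPM in wtSOD1 medium on day 1. It differed from NTg medium by 0.20 ± 0.08 (adjusted p = 0.622) and from wtSOD1 medium by 0.31 ± 0.08 (adjusted p = 0.0632). Without NTg day 1 library 6 these were 0.29 ± 0.07 (adjusted p = 0.0474) and 0.31 ± 0.07 (adjusted p = 0.0115), both past the threshold.

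Tap2 (gene 21355), the second TAP subunit, was scarce on day 1, at 0.795, 1.32 and 3.3 CPM in NTg, 1.45, 2.76 and 3.33 CPM in mSOD1 and 0.514, 1.37 and 2.91 CPM in wtSOD1 medium. These ranges overlapped, and the difference of 0.76 ± 0.30 from NTg medium did not pass (adjusted p = 0.58). Tapbp (gene 21356), which encodes tapasin, differed from NTg medium by 0.28 ± 0.10 (adjusted p = 0.483) and Tapbpl (gene 213233), which encodes the tapasin-related peptide editor TAPBPR, by 0.30 ± 0.16 (adjusted p = 0.792). With the experiment as a block within the day Tapbp passed (0.28 ± 0.07, adjusted p = 0.041), beside 1.24% of all genes called in either direction. Of Tapbp's exon bases 24.9% are overlapped by the antisense gene Gm19412, so its reads are less certain. Nlrc5 (gene 434341), the class I transactivator, read 0.41, 0.638 and 3.06 CPM in NTg and 0.58, 1.03 and 1.63 CPM in mSOD1 medium. The 3.06 CPM was 13 reads in library 6, and the difference was 0.43 ± 0.31 with it and 0.77 ± 0.27 without it (adjusted p = 0.863 and 0.386). Against wtSOD1 medium Tap2, Tapbp, Tapbpl and Nlrc5 differed by 0.58 ± 0.28, 0.20 ± 0.10, 0.07 ± 0.16 and 0.74 ± 0.30, with adjusted p of 0.42, 0.437, 0.924 and 0.337. In that comparison 7 of the 9 members had an unadjusted p under 0.05, all of them higher in mSOD1 medium, beside 11.1% of all genes in either direction, H2-T23 and Tapbpl being the others.

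**Figure D2:**
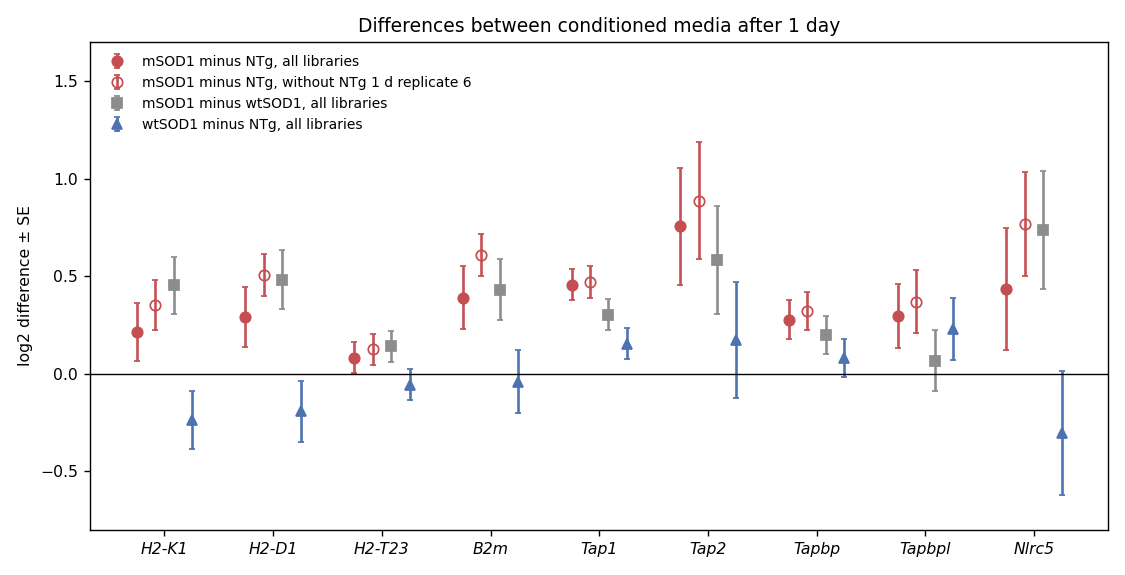
Log2 differences (y axis, ± SE, linear) between media after 1 day for each member (x axis), with the mSOD1 minus NTg comparison shown with all libraries (filled circles) and without NTg day 1 library 6 (open circles). Tap1 lies at 0.46 and 0.47 in these, while B2m moves from 0.39 to 0.61 and H2-D1 from 0.29 to 0.51.

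Medium from wtSOD1 astrocytes was compared with NTg medium as the control for overexpression of SOD1 itself. On day 1, 0 of the 9 members passed the test in edgeR, DESeq2 or limma, and 0 had an unadjusted p under 0.05, beside 0.0263% of all genes called. Estimates ran from -0.30 (Nlrc5) to 0.23 (Tapbpl), with a median of -0.04. Without NTg day 1 library 6 they ran from -0.10 (H2-K1) to 0.31 (Tap2), with a median of 0.12, and those of Nlrc5 (0.03), H2-D1 (0.02) and B2m (0.18) changed sign, with 0 members called. On day 3 the count was again 0 of 9 with each tool and 0 unadjusted, beside 0.0987% of genes, with estimates from -0.07 (H2-K1) to 0.26 (Nlrc5).

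The same comparisons were made after 3 days. No member passed: 0 of 9 against NTg medium, where 2.91% of all genes were called in either direction, and 0 of 9 against wtSOD1 medium, where 3.37% were. DESeq2 and limma also called 0, and 0 members had an unadjusted p under 0.05 in either comparison. Tap1 read 20.7, 22.4 and 24.1 CPM in NTg, 21.7, 23.6 and 25.5 CPM in mSOD1 and 23, 23.9 and 26.7 CPM in wtSOD1 medium on day 3. The 3 ranges overlapped, and the difference between mSOD1 and NTg medium was 0.07 ± 0.07 (95% interval -0.08 to 0.22, adjusted p = 0.649). B2m read 47.7, 55.3 and 57 CPM in NTg, 52.9, 61 and 65.9 CPM in mSOD1 and 45.7, 51.9 and 59 CPM in wtSOD1 medium. It was higher in mSOD1 medium in 6 of 6 experiments against both controls, yet the differences of 0.19 ± 0.14 (adjusted p = 0.502) and 0.22 ± 0.14 (adjusted p = 0.427) did not pass. Over the other members, estimates against NTg medium ran from -0.08 (Tapbp) to 0.16 (H2-D1).

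Whether the effect of mSOD1 medium differed between the days was tested as an interaction, which shares its libraries with the comparisons above. No member passed: 0 of 9 against NTg medium (0.23% of all genes called) and 0 of 9 against wtSOD1 medium (0.592%), in edgeR, DESeq2 and limma. Under an unadjusted p of 0.05 there were 2 and 3 members, beside 14.2% and 15.1% of all genes. The interaction of wtSOD1 with NTg medium likewise gave 0 of 9, called or unadjusted, in the 3 tools, beside 0.0197% of genes. For Tap1 the difference between mSOD1 and NTg medium was smaller on day 3 by 0.39 on the log2 scale (interaction -0.39 ± 0.11, adjusted p = 0.116), in the same direction in 6 of 6 experiments. With the experiment as a block this Tap1 interaction passed the threshold (-0.39 ± 0.11, adjusted p = 0.0497), beside 2.67% of all genes called. With a block within each day it was -0.41 ± 0.11 (adjusted p = 0.00953), beside 11% of all genes. It also passed without NTg day 1 library 3, which had the group's highest Tap1 level, at -0.47 (adjusted p = 0.0322). With the block within each day Tapbp passed as well (-0.37 ± 0.09, adjusted p = 0.00796), and the Tap1 interaction against wtSOD1 medium, -0.36 ± 0.11 (adjusted p = 0.093), became -0.36 ± 0.10 (adjusted p = 0.0195), beside 10.9% of all genes.

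Most members were higher on day 3 than on day 1 in every medium. In NTg medium 8 of 9 passed upward, beside 30.8% of all genes tested, in mSOD1 medium 8 of 9, beside 28.4%, and in wtSOD1 medium 9 of 9, beside 31.1%. The member not called in NTg and mSOD1 medium was H2-D1. Median log2 rises of the members were 1.01, 0.79 and 1.13 in NTg, mSOD1 and wtSOD1 medium, beside -0.00, -0.01 and -0.01 over all genes. All day 3 libraries lay above all day 1 libraries for 4 members in NTg medium (19.9% of all genes), 8 in mSOD1 medium (17.4%) and 9 in wtSOD1 medium (19.9%). Without NTg day 1 library 6 these counts were 9, 8 and 9. The share of all genes without that library was not computed and can only be the same or larger in NTg medium. Leaving out that library, experiment 6 as a whole, or the pair of that library and wtSOD1 day 1 library 4 added H2-D1 in NTg medium, and no other alternative run changed a member's call between days.

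Tap2 had the largest estimate of the members in NTg medium, going from 0.795 to 3.3 CPM on day 1 to 6.04 to 8.87 CPM on day 3. Its log2 rises were 2.28 ± 0.26 (4.87-fold, adjusted p = 1.79e-09), 1.67 ± 0.25 and 2.30 ± 0.24 in NTg, mSOD1 and wtSOD1 medium. Nlrc5 went from at most 1.14 CPM to 2.91 to 4.32 CPM in wtSOD1 medium, where it rose 5.54-fold (2.47 ± 0.26, adjusted p = 1.62e-10), and rose by 1.90 ± 0.27 in NTg and 1.53 ± 0.26 in mSOD1 medium. These 2 genes were among the scarcest members on day 1. Their folds thus rest on few reads there, 9 to 183 per library for Tap2 and 4 to 59 for Nlrc5. Of Tap2's exon bases 14.1% are overlapped by Gm15821 and 4.36% by Gm20496 on the other strand, so its reads are less certain.

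B2m rose by 1.27 ± 0.15, 1.07 ± 0.15 and 1.28 ± 0.15 in NTg, mSOD1 and wtSOD1 medium (2.42-, 2.1- and 2.42-fold, adjusted p = 8.64e-09, 1.97e-07 and 4.45e-09). Every day 3 library in mSOD1 medium, from 52.9 CPM up, exceeded every day 1 library in it, which reached 34.3 CPM. In NTg medium the ranges of B2m met through library 6, and without it the rise was 1.49 ± 0.10 (adjusted p = 1.09e-14). Tapbp rose by 1.20 ± 0.09, 0.84 ± 0.09 and 1.13 ± 0.09 and Tap1 by 0.95 ± 0.08, 0.56 ± 0.08 and 0.93 ± 0.07 in the same order of media. Tapbpl rose by 1.01 ± 0.15, 0.79 ± 0.15 and 0.83 ± 0.15.

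Among heavy chains, H2-K1 rose by 0.96 ± 0.14, 0.76 ± 0.14 and 1.13 ± 0.14 in NTg, mSOD1 and wtSOD1 medium and H2-T23 by 0.58 ± 0.08, 0.52 ± 0.08 and 0.66 ± 0.08. H2-K1 read 25.4, 27.9 and 30.1 CPM in NTg medium on day 3, all above the 15.5 CPM that its day 1 libraries other than library 6 reached. H2-D1 had the smallest estimates of the 9 members in all 3 media. It read 15.4, 17 and 18.3 CPM in NTg, 16.6, 18.7 and 21.9 CPM in mSOD1 and 14.9, 17.8 and 20.1 CPM in wtSOD1 medium on day 3. Its changes were 0.27 ± 0.15 (adjusted p = 0.121), 0.15 ± 0.15 (adjusted p = 0.416) and 0.52 ± 0.15 (adjusted p = 0.00307), and in NTg medium without library 6 it rose by 0.49 ± 0.11 (adjusted p = 0.000118). The summed class I H2 rows rose by 0.55 ± 0.08, 0.44 ± 0.08 and 0.73 ± 0.08.

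**Figure D3:**
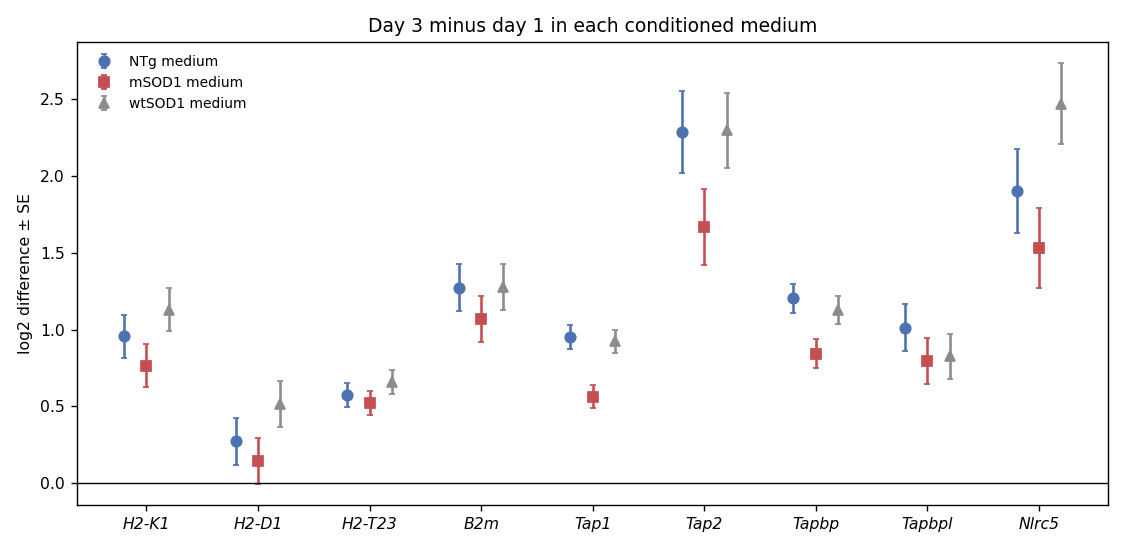
Log2 difference between day 3 and day 1 (y axis, ± SE, linear) for each member (x axis) in NTg (circles), mSOD1 (squares) and wtSOD1 medium (triangles). Tap2 and Nlrc5 lie highest, between 1.53 and 2.47, and H2-D1 lowest, between 0.15 and 0.52.

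**Figure D4:**
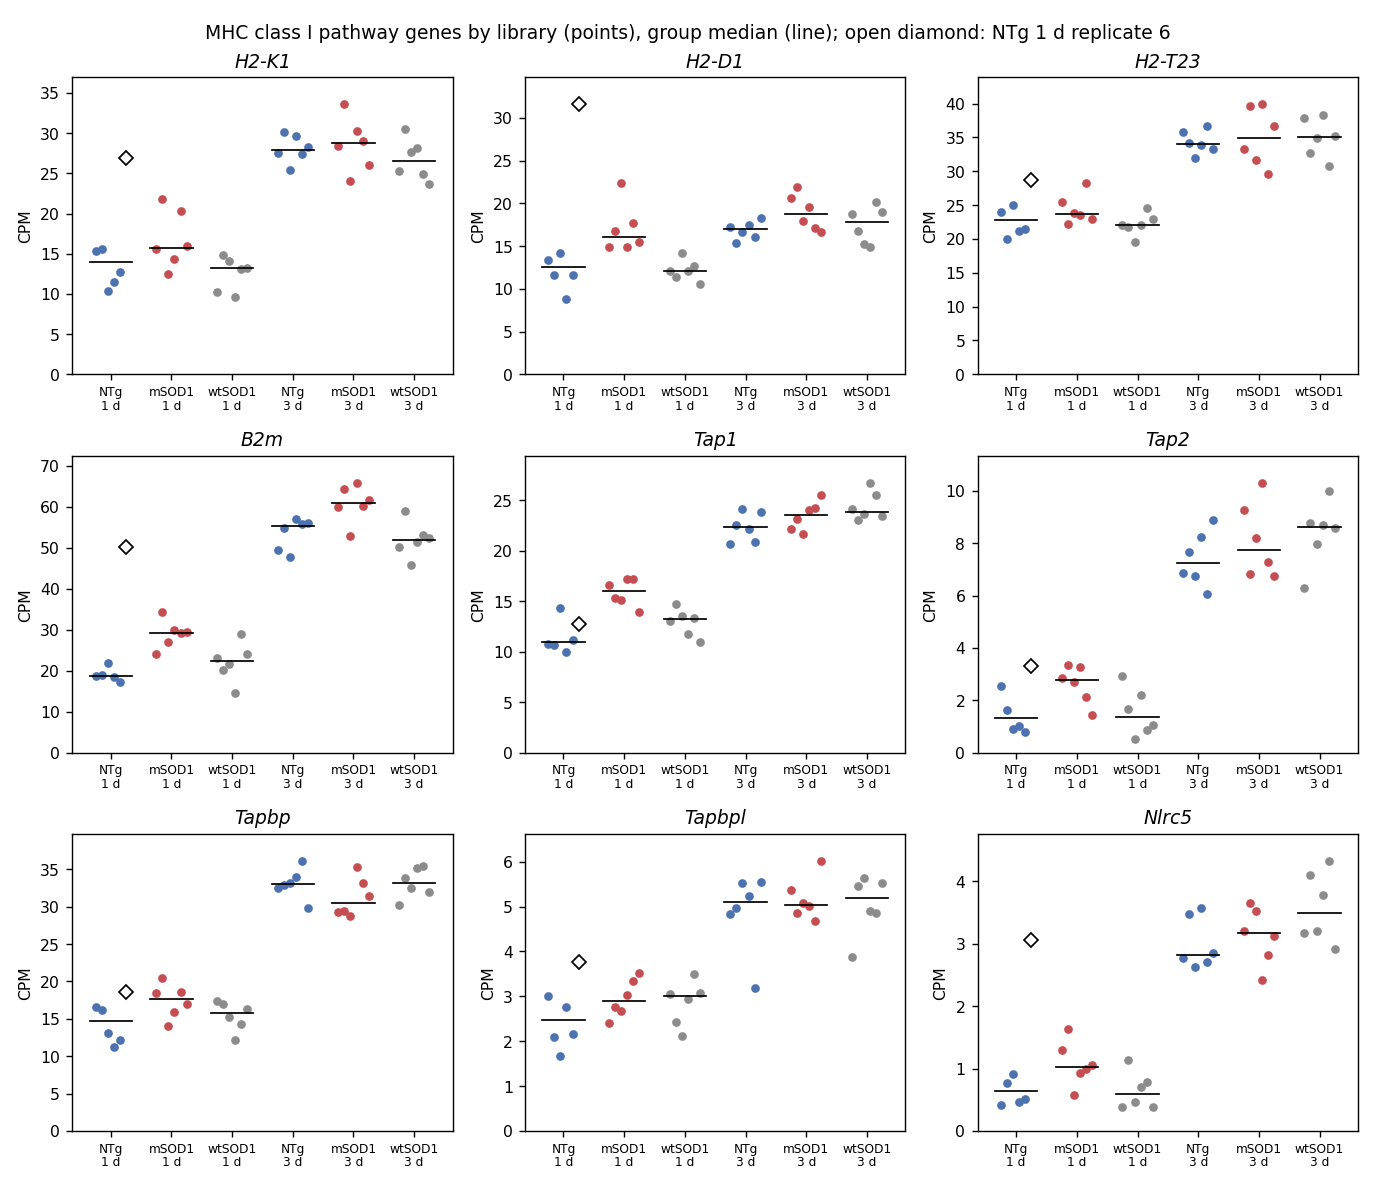
CPM (y axes, linear from 0) of the 9 members in each of the 36 libraries, by medium and day; points are libraries, lines are group medians, and the open diamond is NTg day 1 library 6. Day 3 libraries lie above day 1 libraries for most members, and the open diamond lies far above its group for H2-K1, H2-D1, B2m and Nlrc5.

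The rest of the pathway was read from lists. Of 16 genes that control class I transcription, 4 rose in mSOD1 against NTg medium on day 1, among them Irf9 (1.00 ± 0.07, adjusted p = 2.67e-12), Irf1 (0.85 ± 0.13, adjusted p = 5.74e-05) and Stat2 (0.53 ± 0.09, adjusted p = 0.000268). Irf9 and Stat2 carry the type I interferon signal to the nucleus, and Irf1 binds interferon-response elements. Irf1 read 8.3 to 14.6 CPM in NTg and 15.7 to 29.8 CPM in mSOD1 medium, without overlap. Irf9, Irf1 and Stat2 also rose against wtSOD1 medium (0.61, 0.87 and 0.56). In wtSOD1 against NTg medium Irf9 rose (0.39 ± 0.07, adjusted p = 0.023). On day 3, 1 of the 16 passed, Irf9, higher in mSOD1 than in NTg medium (0.35 ± 0.07, adjusted p = 0.00705), and the interactions of Irf9 (-0.65 ± 0.10) and Irf1 (-0.96 ± 0.17) with day were past the threshold (adjusted p = 0.000628 and 0.00447). The list's median on day 1 was 0.04, or 0.08 without NTg day 1 library 6, beside -0.00 over all genes. Without that library 2 of the 16 passed on day 3 against NTg medium and 3 in that interaction.

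Between days control genes were called in both directions, where 30.8%, 28.4% and 31.1% of all genes were called higher and 30.8%, 28% and 30.7% lower in NTg, mSOD1 and wtSOD1 medium. In NTg medium 7 of 16 rose, led by Irf1 (1.31 ± 0.12), Nfkb1 (0.65 ± 0.07) and Rfx5 (0.70 ± 0.09), a subunit of the factor that binds the class I X box, and 1 fell. Without NTg day 1 library 6 these counts were 8 and 0. In mSOD1 medium 7 rose and 4 fell, Irf9 by 0.74 and Stat2 by 0.33 among them, while Tap1 and B2m rose as given above.

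The proteasome and peptidase list held 14 tested genes, and 0 passed in any comparison between media, where Psmb8 came nearest (0.71 ± 0.26 in mSOD1 against NTg medium on day 1, adjusted p = 0.53). Between days 5 rose and 4 fell in NTg, 5 and 5 in mSOD1, and 4 and 4 in wtSOD1 medium, near the shares of all genes given above. Without NTg day 1 library 6, 3 fell in NTg medium. The immunoproteasome subunits Psmb8 (2.21 ± 0.23, 1.68 ± 0.21 and 2.15 ± 0.21) and Psmb9 (1.46 ± 0.37, 2.18 ± 0.39 and 2.08 ± 0.35) rose, and Psmb5, the standard subunit that Psmb8 replaces, fell by 0.28, 0.43 and 0.39.

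All 8 genes for chaperones and peptide trimming in the endoplasmic reticulum rose between days in each medium, with medians of 0.46, 0.44 and 0.48. Erap1, the aminopeptidase that trims class I peptides, rose by 1.61 ± 0.10, 1.3 ± 0.09 and 1.35 ± 0.09. Between media, Sec61a1, the channel subunit, was lower in mSOD1 than in NTg medium on day 3 (-0.17 ± 0.04, adjusted p = 0.0142). Of 19 other class I and class I-like heavy chains, 0 passed between media, and 12, 10 and 14 rose and 0 fell between days (13 in NTg medium without NTg day 1 library 6). Mr1, which presents vitamin B metabolites, read at most 0.184 CPM in any day 1 library and 0.8 to 2.2 CPM on day 3.

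Across all 36 libraries, the genes whose log2 CPM ran most closely with the members' mean profile were Patl2 (Pearson r = 0.975), Nceh1 (0.961), Nr3c1 (0.959), Cdkn1a (0.958) and 1300014I06Rik (0.957), and Psmb8 (0.953) and Csf1 (0.953) were among the first 10. These values are a description with no test, since the libraries share the split between days. Patl2 spans B2m on the other strand, with 0 exon bases shared between the 2 genes in GENCODE M21. Whether reads of 1 gene were counted for the other was not tested. After group means were subtracted, Patl2 (0.847), Notch4 (0.834), Klf4 (0.81) and Apoe (0.795) came first, a ranking that NTg day 1 library 6 enters. Among the members themselves, deviations from the group means ran together most for H2-K1 and Tapbp (r = 0.704, and 0.624 without that library), H2-D1 and B2m (0.695, and 0.155 without it) and H2-K1 and B2m (0.692, and 0.389 without it).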

How the data were processed

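Whole-number read counts per gene in 36 libraries were deposited by the authors, per the file headers. A further deposited column, VSE, holds the authors' transformed values on a log2-like scale and served as an alternative. TopHat 1.3.3, DESeq and mouse build mm9 are named in the submitters' processing notes, while counting, annotation and strand were not given in the sources used here. Rows without a symbol (at most 0.000923% of a library's reads) were left out. Counts were tested here with edgeR 4.0.16 in R 4.3.3 (quasi-likelihood F-tests, robust, TMM, filterByExpr by group) in 1 fit of 6 group means over 36 libraries with 30 residual degrees of freedom. From it 12 contrasts were taken. Adjusted p-values are Benjamini-Hochberg over the 15204 genes tested and were called below 0.05. Libraries of 4.39 to 88.9 M reads limit the precision of the scarce genes.

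Alternatives were RLE scaling, no filter on low counts, the experiment as a block, fits of the compared groups alone, DESeq2 1.42.0, limma 3.58.1 on the deposited log2-like values, and leaving out experiments or single libraries. The fits were tested on simulated counts. The changes set there were larger than the members' differences between media, and no experiment effect or library with other transcripts was simulated. That test thus does not bear on the calls between media. The experiment number of the labels was read as a pairing for counts of experiments and in the blocked alternatives. The main fit held no block for it, so its SEs and p-values are unpaired. Same-numbered libraries deviated together, with mean correlations of 0.133 on day 1 and 0.24 on day 3, against -0.026 and -0.048 for different numbers. On day 3, mSOD1 against NTg medium gave 443 called genes in the main fit, 1511 with the block and 2758 with it within each day. Members called were 0 in each of these fits. All 9 members were tested and counted in every comparison, but not every member is named in each. Of the other lists, up to 6 called genes were picked by lowest p. Members and lists were chosen with earlier results of these data known. Lengths, overlaps and shared windows came from GENCODE M21 and promoters from RefSeq, both on GRCm38 and matched by symbol, so no coordinates were converted. Some genes that the lists and their counts include are not reported here by name.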

Additional observations from a re-analysis of the deposited data

Results flagged for a closer look

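Of 54 sets of 6 libraries (9 genes in 6 groups), 5 held a library whose gap to its nearest neighbour exceeded Dixon's 95% critical value of 0.625 of the range, and chance gives about 1 in 20. NTg day 1 library 6 accounted for 4 of them. There H2-K1 read 26.9 CPM, the next library 15.5 CPM. H2-D1 read 31.6 CPM against 14.1 CPM for the next. B2m read 50.2 CPM against 21.8 CPM. Nlrc5 read 3.06 CPM (13 reads) against 0.916 CPM. Tapbpl in NTg day 3 library 5 was low, at 3.18 CPM (40 reads), with the next library at 4.84 CPM. The same NTg day 1 library carried the microglial, class II and myelin transcripts given with the results, and their part in these 4 values was not tested.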

How the results depend on the processing

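No member past the threshold, in the results given or in an alternative, changed sign under that alternative. Estimates that were not called did, as given for wtSOD1 against NTg medium on day 1. In the day 1 comparison of mSOD1 with NTg medium, 1 member passed, among 64 genes called in all. The count was 2 with the experiment as a replicate block within each day (Tap1 and Tapbp), beside 1.24% of all genes, or 189 called. It was 3 without the pair of libraries that stand apart (87 genes called) and 0 with only the groups compared in the fit (35 genes called). When an experiment or library was left out it was 1 to 3, 3 coming without experiment 6 or NTg day 1 library 6. For mSOD1 against wtSOD1 medium on day 1, 1 member passed, among 153 genes called in all. The count was 0 with no filter on low counts (Tap1 adjusted p = 0.0535, 142 genes called) and 0 with only the groups compared (65 genes called). When an experiment or library was left out it was 0 to 3. Without the pair that stands apart the count there stayed at 1 (94 genes called), but the gene was H2-D1 and not Tap1. For the interaction of mSOD1 and NTg medium with day, with 0 members, it was 1 with the replicate block, 2 with the block within each day (35 genes called in all, against 406 and 1680 with these blocks), and 0 to 1 when a library was left out. For the interaction of mSOD1 and wtSOD1 medium it was 1 with the block within each day (90 genes called in all, against 1650). The replicate block changed no other member's call. The cause of these changes was not tested. Few reads for Nlrc5 and Tap2 on day 1 limit what could be detected there.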

Other observations

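Ligands and receptors that read class I molecules or mark cells for natural killer cells were also counted. Of 6 tested genes, 0 passed between media. Between days H60b, a ligand of the activating receptor NKG2D, rose by 1.76 ± 0.15, 1.69 ± 0.15 and 1.53 ± 0.14 in NTg, mSOD1 and wtSOD1 medium, and Raet1e, another such ligand, by 1.51 ± 0.39, 1.27 ± 0.40 and 1.89 ± 0.39. Cd47, which restrains phagocytes, fell by 0.19, 0.17 and 0.22. Of 7 interferon receptor and kinase genes, Jak1 fell by 0.83, 0.70 and 0.83 between days and Ifngr1 rose by 0.30, 0.25 and 0.31, and Jak2 was higher in mSOD1 than in NTg medium on day 3 (0.19 ± 0.05, adjusted p = 0.0267).

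Markers of further cell types were read in the same libraries. Endothelial markers summed to 8.96 to 16 CPM on day 1 and 9.99 to 13.9 CPM on day 3. Outside NTg day 1 library 6 the day 1 maximum was 13.9 CPM. Pluripotent cell markers summed to at most 21.3 and 17.1 CPM on these days, and lymphocyte markers to at most 1.22 and 1.91 CPM.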
